A study of Mus musculus with 8 samples.

Results

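The peaks described here were called in knockout liver, in genes that also held a peak in wild-type liver, but at places where no wild-type peak lay. They number 3012 of the 12290 peaks in the knockout list, and they fall in 1646 of the 2988 genes with a wild-type peak. A knockout peak was taken when its exonic blocks shared no base on the same strand with any block in the wild-type list, and when its gene name occurred in that list. The members were thus chosen by the peak calls of both genotypes, so the presence of these peaks in knockout alone is what selected them and is no finding, and their enrichment, width and distances are given as descriptions, with no test. The label holds for these rows as listed: 3361 other knockout peaks shared a base with a wild-type peak, and the remaining 5917 lay in genes without one. The terms extra, shared and knockout-only-gene peaks are used for these 3 classes below.

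The study asked how METTL14 protects the liver against damage from the unfolded protein response. Livers came from METTL14f/f mice (WT, floxed alleles without Cre named) and METTL14Alb mice (KO, a liver knockout, whose driver the labels name only by the suffix Alb). All mice of both genotypes had received tunicamycin, which blocks N-glycosylation and thereby stresses the endoplasmic reticulum, at 2 mg/kg by intraperitoneal injection for 24 hours, so no untreated liver enters any comparison. Polyadenylated RNA was sequenced before (input) and after immunoprecipitation with an antibody to N6-methyladenosine (m6A), with 2 libraries in each of the 4 groups. Nothing in the labels tells if the 2 libraries of a group are from different mice, so the authors' p-values may reflect technical spread alone. Each genotype had 1 peak list, with 1 value per peak and no replicate values, and values of single input libraries were not used here, so depth and spread per library are not given.

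m6A is the most abundant internal mark of mRNA. METTL3 and METTL14 form the complex that writes it, mostly at adenosines of a short motif that contains GGAC, and in long internal exons and near stop codons. Readers of the YTHDF and YTHDC families bind the mark and steer splicing, translation and decay of the mRNA, and ALKBH5 and FTO can remove it. Antibodies to m6A also bind m6Am, a related mark beside the cap that another enzyme writes where the first transcribed base is an adenosine. In the authors' deposited table of input RNA, Mettl14 itself had a mean count of 76.5 and a log2 change of -0.50 (SE 0.41, adjusted p = 0.342), and it held 0 peaks in either list. Which exons are deleted is not given in the labels, so whole-gene RNA is a weak check of the knockout.

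Because m6Am sits at the first base of a transcript, the start sequences were read for the extra peaks that begin exactly at an annotated transcript start. There were 51 of these (1.69% of extra peaks), against 9.40% of shared KO peaks, 2.15% of knockout-only-gene peaks and 3.49% of WT peaks. Within the genes of extra peaks the shares were 6.96% of shared KO peaks and 2.29% of WT peaks. Of the 51 extra peaks, the 9 with the highest enrichment are printed. Each has 10 bases before the start and 20 bases from it, 5′ to 3′, from RefSeq promoters of GRCm38.p6 (the mm10 build). The capital marks the first transcribed base.
Arf3, chr15:98763099-98763128, minus strand: gggcaggaggGagccggggagcgggccagc
Wipi2, chr5:142629574-142629603, plus strand: gagcataaacAagagtggggacgggatgag
Iqgap2, chr13:95891903-95891932, minus strand: gggaggagatAgttcacttttgccccggtg
Metap1, chr3:138489363-138489392, minus strand: ctcctccggcAgccaggcagcatggcggcg
9130011E15Rik, chr19:45998469-45998498, minus strand: attccggagcAgtggcggcgtcgccggagt
Acp2, chr2:91202902-91202931, plus strand: ttccggcctcTtgctacacagcctacaaca
Rab22a, chr2:173659835-173659864, plus strand: cggggaggtcAggtgacccagctggcgtcc
Cyp2f2, chr7:27119945-27119974, plus strand: gcccccacatAcacacatacactgcagcac
Pcna, chr2:132253161-132253190, minus strand: aagccgcggcAttagacggttgcgggcgca

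Of these 9, Arf3 began with G, Acp2 with T and the others with A. Over all 51 starts the first base was A in 18 (35.3%), close to the 34.4% among all RefSeq starts of the table and the 35.1% among starts of shared KO peaks, and it was G in 43.1%. The letters GGAC, searched on the transcribed strand in the first 50 bases, occurred in 15 of the 51 (29.4%), among them Arf3, Wipi2 and Metap1. They occurred in 23.4% of the starts of shared KO peaks, in 26.3% of those of WT peaks and in 18.9% of all 32817 starts. A match is a description of these letters and not of a modified base. The enrichment of the 9 peaks ran from 24.1 at Pcna, the sliding clamp of DNA replication, to 138.8 at Arf3, a small GTPase of the Golgi.

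Extra peaks were weaker and narrower than the peaks KO liver shared with WT liver. The enrichment score, taken as the ratio of immunoprecipitated over input RNA, had a median of 7.44 over the extra peaks (quartiles 4.49 and 13.6, range 1.10 to 2103). Shared KO peaks had a median of 13.6 (quartiles 6.83 and 27.0) and knockout-only-gene peaks a median of 16.8. Only 28 extra peaks scored above 100, and 79 (2.62%) scored under 2. In the same genes the ordering was alike: of 1371 genes with both kinds of KO peak, the median extra peak stood above the median shared peak in 292 (21.3%), and the typical extra peak was 1.95-fold lower. The highest extra peak stood above the highest shared one in 366 of these genes (26.7%). All of these values come from the calls that defined the classes, so they carry no test.

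**Figure D1:**
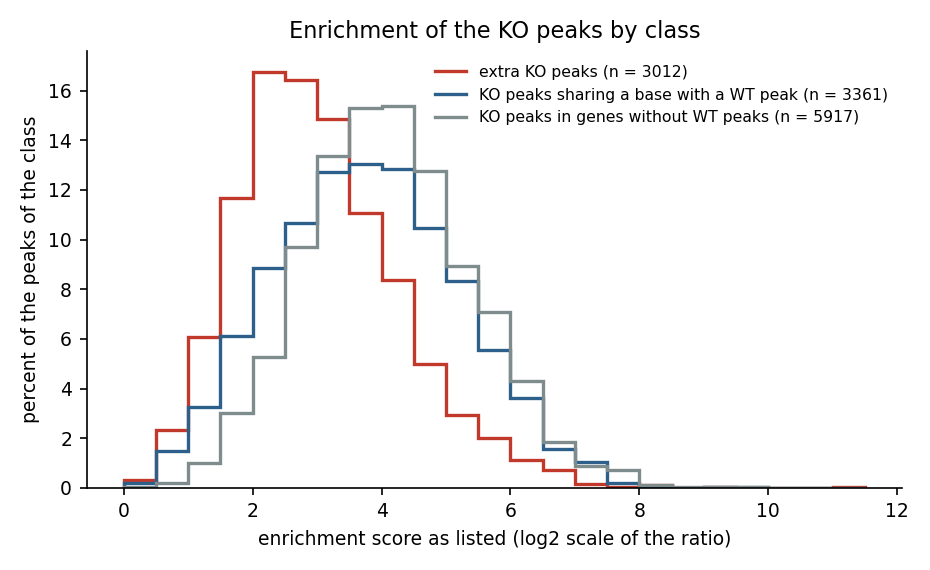
Enrichment scores of KO peaks by class, as the percent of each class (y) in bins of the log2 score (x); lines are the 3 classes and the legend gives their numbers. Extra peaks (median 7.44) lie to the left of shared peaks (13.6) and of peaks in genes without WT peaks (16.8).

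The median extra peak covered 50 exonic bases, and 1663 (55.2%) were no wider than that. Shared KO peaks had a median of 200 bases, with 9.61% at 50 bases or fewer, and knockout-only-gene peaks a median of 99. WT peaks were about as narrow as extra peaks, with a median of 49 bases and 58.3% at 50 or fewer. For WT peaks of the genes with extra peaks these values were 49 and 60.9%. A wider KO peak has more bases that can meet a WT block, so the rule itself favours narrow extra peaks. More than 1 exonic block occurred in 20.2% of extra peaks, in 45.9% of shared KO peaks and in 20.5% of WT peaks. The widest extra peak, 893 bases with a score of 20.5, lay 1 base downstream of the only WT peak of Ip6k1, an inositol hexakisphosphate kinase, and that WT peak shared no base with a KO peak. Next in width came Pcyox1, an enzyme of prenylcysteine breakdown, with 797 bases 101 bases upstream of its WT peak, and Mllt4 (afadin, a junction protein) with 699 bases over 4 blocks. Secisbp2l had an extra peak of 648 bases and Notch2 one of 647. The scores of the latter 4 lay between 14.8 and 27.1.

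The highest single scores belonged mostly to peaks near gene starts. In Susd6, a membrane protein, a peak of 148 bases at chr12:80790582-80790730 scored 2103. Its middle lay 124 bases from the gene's annotated start, and all distances from a gene start are given to the middle of the peak along the genome. It was 83662 bases upstream of the WT peak, which scored 69.8. The predicted gene 1810013L24Rik held the next one (589) and another of 165, both upstream of a WT peak of 144.7. An extra peak of Cp (ceruloplasmin, the copper carrier of plasma) scored 361, and one of Tef, a clock output transcription factor, scored 343. Single peaks of 250 in Slc2a9 (a urate transporter), 153 in Rnf11 (a ubiquitin ligase), 143 in Vps33a (a lysosomal tethering subunit) and 139.9 in Hnrnpk (an RNA-binding protein) were also among the first 10. Of the 10 highest peaks, 7 lay in the first kilobase of their gene. For 8 of the 10 the score equalled a ratio of whole numbers with a denominator of at most 60; input coverage per peak was not used here, and its part in these heights was not tested.

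The 5 lowest scores lay in 3 genes. Alb, which encodes serum albumin, held extra peaks of 1.10, 1.26 and 1.31, Ahsg (fetuin-A) one of 1.24 and Anxa5, a phospholipid-binding annexin, one of 1.26. In the authors' deposited table their mean counts were 349244, 159935 and 4613. Over 4 equal groups of the extra peaks by mean count of their gene, from lowest to highest, the median score was 10.6, 9.25, 7.47 and 4.21, and 73 of the 79 scores under 2 were in the highest of these groups. Spearman's rho between score and mean count was -0.43 over the 3012 extra peaks, which share libraries and often genes, and is given as a description. The genes of extra peaks had a median mean count of 1149 and a lowest one of 102.5. Over 16133 genes in the authors' deposited table the median was 155. High counts were not particular to the members: of 1342 tested WT-peak genes without extra peaks, 1338 also had a mean count of at least 100.

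Extra peaks lay at all distances from the WT peaks of their genes. The genomic distance to the nearest WT block of the same gene, introns included, had a median of 1513 bases (quartiles 150 and 11485, longest 279238). Of the extra peaks, 290 (9.63%) lay 0 or 1 base away, 366 lay 2 to 100 bases away, 733 lay 101 to 1000, 807 lay 1001 to 10000 and 816 lay farther. The farthest group had the highest median score of these bins, 10.1. Downstream peaks numbered 1571 (52.2%) and upstream peaks 1441, but of the 290 touching peaks 63.4% lay downstream. At the edge of the rule, 145 extra peaks at a distance of 0 had a median score of 6.46, and 33 KO peaks just outside it, which shared 1 to 10 bases with a WT peak, had one of 5.38.

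**Figure D2:**
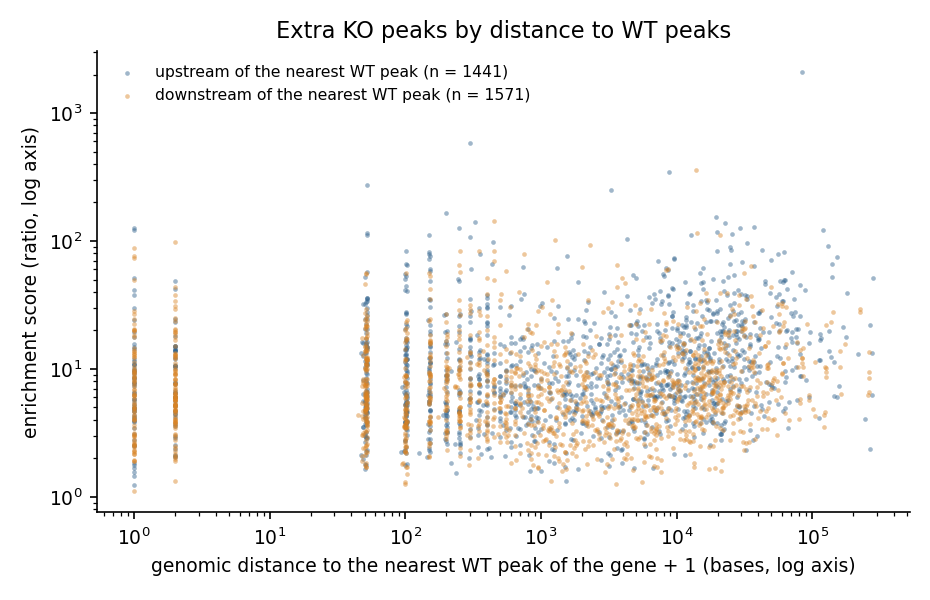
Enrichment score (y, log axis) of each of the 3012 extra KO peaks against its genomic distance to the nearest WT peak of its gene plus 1 base (x, log axis), with colour for the side. Points at short distances stand in columns about 50 bases apart, and scores above 100 occur both near WT peaks and far from them.

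Touching peaks included weak ones in Aars, the alanyl-tRNA synthetase (2.58), and Agxt, the peroxisomal glyoxylate enzyme (5.19), and a stronger one in Abcb4, the canalicular phospholipid flippase (9.58). The longest distances were those of 3 peaks in Tmem254b (51.6, 6.29 and 13.3), all at least 275941 bases from the WT peak of that name. Tmem254b has near-identical neighbours, so the assignment of these reads is uncertain. Cped1 had an extra peak of 22.2 at 268398 bases and 474 bases from its start, upstream of WT peaks whose highest score was 235, and Chchd3, a subunit of the mitochondrial contact site complex, one of 2.38 at 267482 bases. Both of the latter lay in the first kilobase of long genes.

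Along the gene span, extra peaks lay nearer the 3′ end than shared KO peaks, but only a little nearer it than WT peaks of the same genes. Of the 3012 extra peaks, 2882 could be placed on a RefSeq gene, and their median position was 0.746 of the span from start to end. Shared KO peaks had a median of 0.357 (0.489 in the genes that also held extra peaks), knockout-only-gene peaks 0.636 and WT peaks 0.577. WT peaks of the genes with extra peaks had a median of 0.699. In the 1309 genes where both kinds were placed, the extra peaks were more 3′ in 796 (60.8%). The first kilobase held 15.7% of extra peaks and 23.7% of shared KO peaks, and the last kilobase 23.4% and 16.0%. Within the genes of extra peaks, the first kilobase held 19.6% of shared KO peaks and 21.9% of WT peaks, and the last 16.0% and 20.9%. Scores differed by place: the 453 extra peaks of the first kilobase had a median of 10.5, and 19 of the 28 peaks above 100, whereas the 662 peaks of the last kilobase alone had a median of 5.48 and 0 above 100. The median mean count of the genes was 926 for the former and 1476 for the latter. What part abundance has in these scores was not tested.

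**Figure D3:**
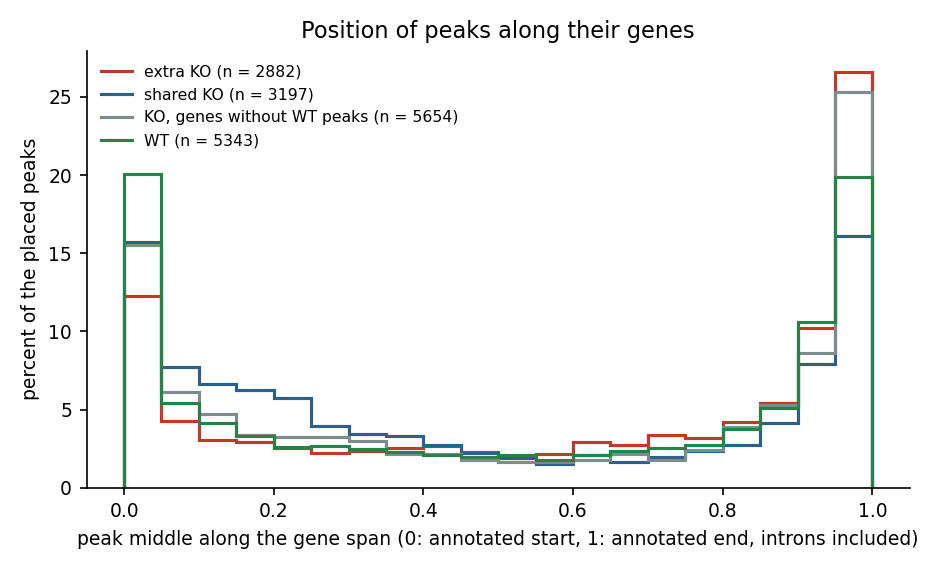
Position of the middle of each placed peak along its gene (x, 0 is the annotated start and 1 the end, introns included) as the percent of the placed peaks of each class (y). Extra peaks (median 0.746) have the smallest share of the 4 classes in the first bin and the largest in the last, while shared KO peaks (median 0.357) spread over the first part of the gene.

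Most genes had 1 extra peak, and a few genes had many. Of the 1646 genes, 893 (54.3%) held 1, 416 held 2 and 337 held 3 or more, and the 67 genes with at least 5 held 411. Kmt2d, a histone H3 lysine 4 methyltransferase, had 15 extra peaks with scores of 4.07 to 25.7 (median 7.80), of which 14 lay upstream of its single WT peak of 142.5, up to 28984 bases away. Huwe1, a ubiquitin ligase, had 13 with scores of 2.76 to 17.5, and 10 of them lay upstream of a WT peak of 76.1. Plec, the cytoskeletal linker plectin, had 10 of 2.41 to 12.2, 8 of them upstream of the nearest of its 5 WT peaks. Notch2, a receptor of bile duct development, had 9, all upstream of the WT peak of 150.9 and within 3685 bases of it, with scores of 6.46 to 25.2. Tns1 (tensin, a focal adhesion protein) had 9 of 2.97 to 18.6, with 7 upstream. The single WT peaks lay toward the gene ends, at 39586 of 42408 bases in Kmt2d, 118980 of 134632 in Huwe1 and 136506 of 136829 in Notch2. Along the genome, introns included, little of these genes lay downstream of that peak. What part this has in the upstream counts was not tested. In each of these 5 genes every WT peak but 1 of Tns1 shared bases with a KO peak. In the KO list the shared peaks of Kmt2d, Huwe1 and Notch2 scored 10.3, 8.64 and 14.9; whether scores of the KO and WT lists are on 1 scale was not given in the sources used here.

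**Figure D4:**
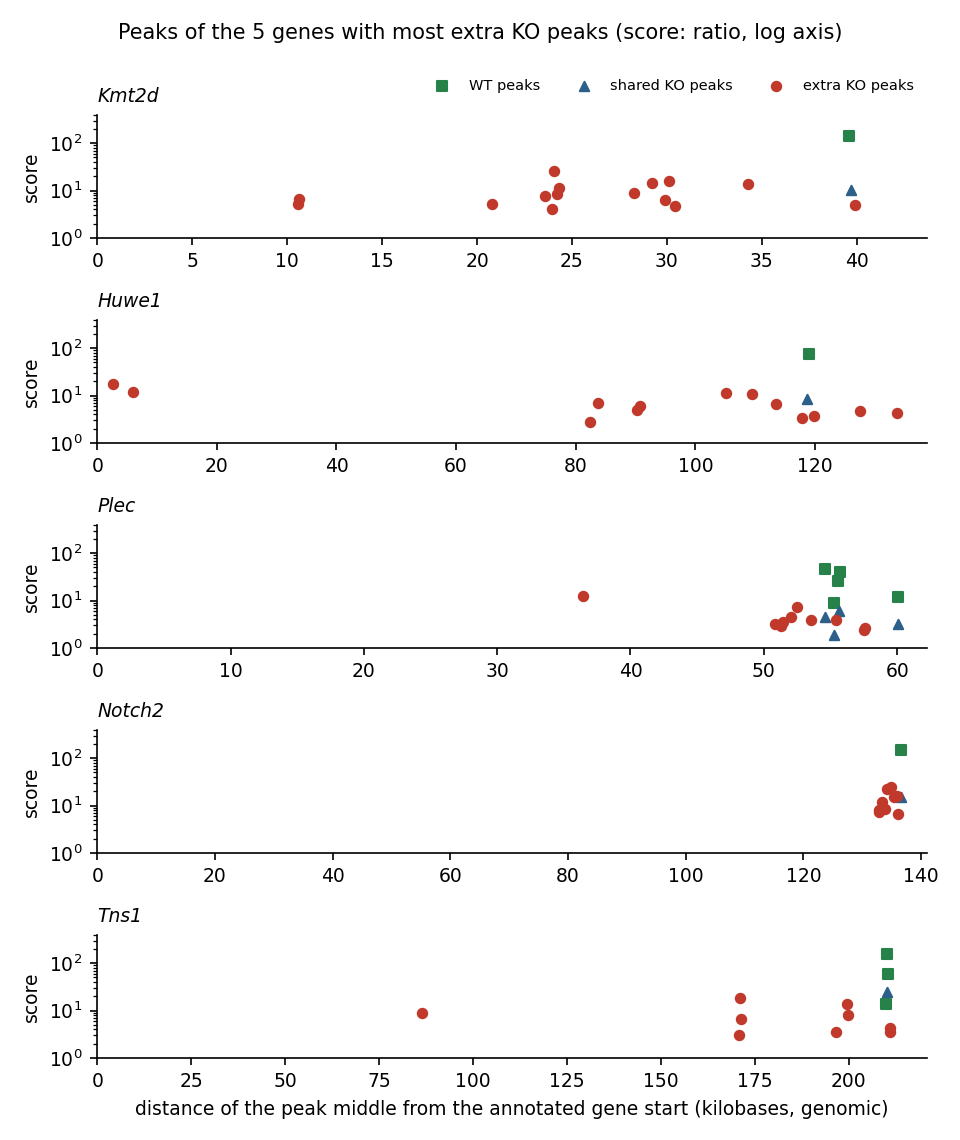
Enrichment score (y, log axis) of each peak of Kmt2d, Huwe1, Plec, Notch2 and Tns1 against its distance from the annotated gene start (x, kilobases), with WT peaks as squares, shared KO peaks as triangles and extra KO peaks as circles. In Kmt2d 14 of 15, in Huwe1 10 of 13 and in Notch2 9 of 9 extra peaks lie upstream of the WT peak. That WT peak lies toward the end of each gene along the genome, and the part of its place in these counts was not tested.

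Most WT peaks in the genes of extra peaks were still called in KO liver, about as often as WT peaks in general. Whether the WT peak nearest to each extra peak was kept was not counted. The genes held 3186 WT peaks, of which 2325 (73.0%) shared bases with a KO peak, close to the 72.8% of all 5586 WT peaks. Those kept had a median WT score of 33.6, and the 861 not kept one of 12.98. In 989 genes (60.1%) every WT peak was kept, in 384 some were, and in 273 (16.6%) none was. The 494 extra peaks of the latter 273 genes lay closer to the WT peaks, with a median distance of 646.5 bases against 1638 in the other genes and with 34.0% against 19.4% within 100 bases. They were downstream in 173 cases (35.0%), and their median score was 9.36 against 7.09. The 5 highest of them, named after their values were seen, were in Vps33a (143), Arf3 (138.8), Ercc3 (127), a DNA repair helicase, Slc18a1 (127), a vesicular amine transporter, and Atrn (122), attractin. Arf3, Ercc3 and Atrn had the middle of their extra peak 24, 279 and 116 bases from the gene start, and the peaks lay 22808, 29113 and 119338 bases upstream of the WT peak, and in Slc18a1 the extra peak touched a WT peak of 297.5.

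Input RNA was then compared, since the peak rule did not use it directly. The numerator of the deposited fold change is not named and was read as KO over WT: of 347 genes with a log2 change above 2 and a mean count of at least 100, 156 had peaks in KO alone and 0 in WT alone, and of 403 genes below -2 the numbers were 30 and 46. Genes with extra peaks were more often lower than higher. At the adjusted p under 0.05 of the authors' deposited table (DESeq2), 229 of 1646 (13.9%) were higher in KO, where 20.4% of all 14257 tested genes were, and 718 (43.6%) were lower, where 22.2% of all were. Their median log2 change was -0.36. Since every member had a mean count above 100, the nearer background is that of genes with at least this mean, of which 20.8% were higher and 31.4% lower. At an adjusted p under 0.01, 178 members (10.8%) were higher, against 15.3% of all tested genes and 16.5% of those with a mean of at least 100. At that threshold 614 members (37.3%) were lower, against 18.1% and 26.1%. With a change of at least 2-fold as well as an adjusted p under 0.05, 91 members (5.53%) were higher, against 14.9% and 12.5%. By the same rule 362 members (22.0%) were lower, against 12.6% and 16.6%.

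Beside them, of 1342 WT-peak genes without extra peaks 75 (5.59%) were higher and 820 (61.1%) lower, with a median of -0.75. Of 3130 genes with KO peaks alone 928 (29.6%) were higher and 614 (19.6%) lower, with a median of 0.12. The direction of the fold change was itself read from genes with peaks in 1 list alone, so the lean of these peak-defined sets is no independent result. Of the 67 genes with at least 5 extra peaks 25 (37.3%) were higher and 20 (29.9%) lower. Among the 273 genes with no WT peak kept, 37 (13.6%) rose and 106 (38.8%) fell by these calls. The nearer background described above stood at 20.8% and 31.4%. Peaks and RNA changes come from the same input libraries, so these sets are not independent of the RNA values, and no test was made between them. In bulk liver, fewer cells of a type and less RNA per cell cannot be told apart. Of the marker genes, 5 of 7 hepatocyte markers were lower and 2 higher in the authors' deposited table (mean counts 15318 to 349244), 4 of 5 cholangiocyte and 3 of 5 stellate cell markers were higher and 0 lower, Kupffer cell markers were 1 higher and 2 lower of 5, and endothelial markers 0 and 1 of 5. The other cell types' markers had mean counts of 84.9 to 2630, and their part in the RNA changes was not tested.

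**Figure D5:**
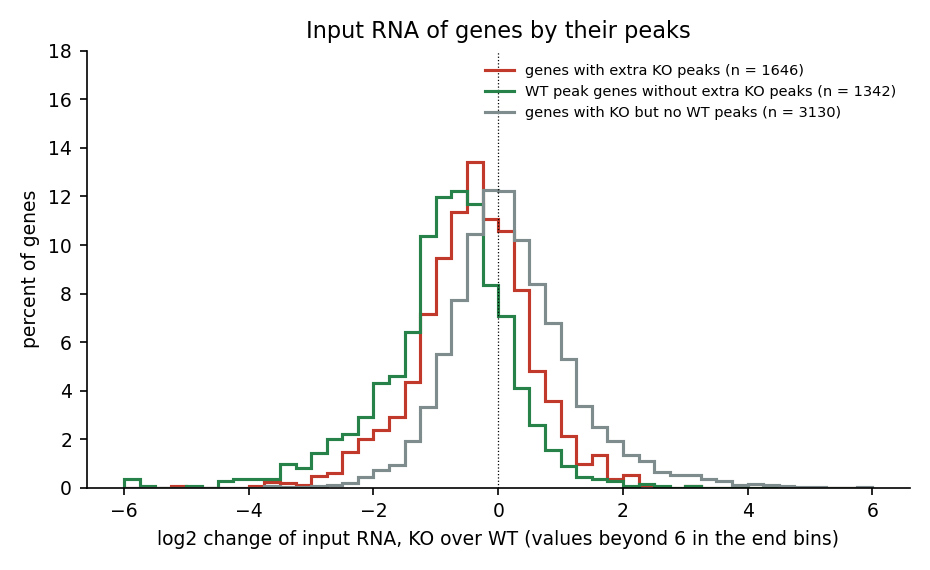
Log2 change of input RNA, KO over WT, from the authors' deposited table (x, bins of 0.25) as the percent of the genes of each set (y). Genes with extra peaks (median -0.36) lie between WT-peak genes without extra peaks (-0.75) and genes with KO peaks alone (0.12).

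The genes whose RNA changed most are described with their extra peaks. In the authors' deposited table Mfge8, a bridging protein in the uptake of dying cells, rose by 3.13 on the log2 scale (SE 0.18, adjusted p = 4.1e-64), and it held 1 extra peak of 13.3 that lay 11455 bases upstream of a WT peak of 69.0. Rises of 2.23 to 2.39 were listed there for Acot2 (an acyl-CoA thioesterase with a close paralogue), Jun, Spp1 (osteopontin, also a cholangiocyte marker) and Ets2, with best extra peaks of 4.06, 6.16, 2.86 and 19.3. Slco1b2, the hepatocyte uptake transporter for organic anions, fell by 5.07 (SE 0.29, adjusted p = 3.2e-65) in the authors' deposited table. Its WT peak of 702 was not kept, and an extra peak of 102 lay 1270 bases downstream. The authors' deposited table lists falls for Slc25a47, Bhmt, Sord and Mup20 too, with log2 changes of -3.81, -3.72, -3.71 and -3.69, and their best extra peaks scored 5.74, 3.79, 6.46 and 13.8. Mup20 is one of many near-identical urinary protein genes, so its counts and its peaks are uncertain.

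Gene lists are given by how many of their genes with a WT peak held an extra peak, since only these could, and over all WT-peak genes that share was 1646 of 2988 (55.1%). Of the 26 genes listed for the mark itself 8 had a WT peak, and 5 of these held 10 extra peaks with scores of 4.91 to 27.8, and 2 of the 5 were higher and 0 lower in RNA; over the list, 5 of 24 tested were higher and 2 lower. Alkbh5, the demethylase, had the strongest one, 27.8, at 324 bases from its start and 100 bases upstream of the nearest of its 3 WT peaks, which all were kept. The readers followed with 10.3 in Prrc2a, 9.58 in Ythdf1 and 6.77 in Ythdc1, and Fto was the fifth gene. In the authors' deposited table Ythdf1 rose by 0.61 (SE 0.22, adjusted p = 0.0184) and Prrc2a by 0.45 (SE 0.19, adjusted p = 0.0398).

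Genes of the unfolded protein response, the pathway that tunicamycin sets off, held extra peaks of mostly low score. This was not particular to them. Extra peaks of plasma proteins had a median of 3.03, and those in the group of genes with the highest mean counts one of 4.21. What part abundance has in these scores was not tested. Of 45 listed genes 34 had a WT peak and 25 had extra peaks, 37 in all, with a median score of 3.90. The strongest were 15.2 in Derl1 and 12.8 in Dnajb11, which serve the disposal and the folding of proteins in the endoplasmic reticulum, 13.3 in Chac1, which degrades glutathione, and 10.4 in the stress sensor Atf6. Dnajc3, an inhibitor of the eIF2 kinases, had the most, 5, none above 5.01. The chaperones Hspa5 (BiP) and Hsp90b1 had best extra peaks of 1.92 and 1.59. Ddit3, which encodes CHOP, had no extra peak: both of its KO peaks shared bases with its 2 WT peaks. The same held for Nupr1, with 1 KO peak at its 1 WT peak. In RNA, 3 of the 25 were higher, 12 lower and 10 not called in the authors' deposited table, where Hspa5 rose by 1.36 (adjusted p = 3.35e-10) and Herpud1 fell by 2.37 (adjusted p = 2.69e-35); over the list, 8 of 43 tested genes were higher and 20 lower.

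Hepatocyte products and enzymes made up the next groups, and their RNA was mostly lower. Of 69 plasma proteins 55 had a WT peak and 32 held 79 extra peaks with a median score of 3.03, and 28 of the 32 were lower and 0 higher in RNA, as 60 of 67 tested in the list were lower and 2 higher. Apart from Cp the strongest were 93.0 in C4b and 40.7 in Cfb, both of the complement system, and 11.3 in the clotting factor F10; C4b has a close paralogue. The Cfb peak lay 124 bases from the gene's start and 101 bases upstream of a WT peak of 96.4. Among 37 cytochromes P450, 21 had a WT peak and 8 held 16 extra peaks, and 6 of the 8 were lower and 1 higher, against 27 and 2 over the list. Cyp4f14 had 5 of these, the best 79.3 at 108 bases from its start, and none of its 3 WT peaks was kept. Cyp2f2 followed with the 26.5 at its start that is printed above, Cyp2c37 with 13.1 and Cyp3a13 with 9.43, and P450 families hold close copies. RNA of Cyp2f2 fell by 2.38 (SE 0.19, adjusted p = 1.79e-32) in the authors' deposited table.

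In lipid and cholesterol metabolism 29 of 58 genes had a WT peak and 17 held 36 extra peaks with a median of 6.67, and 12 of the 17 were lower and 0 higher, against 26 and 8 of 57 tested in the list. Lss (lanosterol synthase) had one of 82.8 over 3 blocks, 19929 bases upstream of a WT peak that was not kept. Insig2, which retains the sterol sensor, had one of 28.4, and Acsl1, an acyl-CoA synthetase, one of 14.9 at 124 bases from its start. Amino acid, urea and glucose metabolism followed: 31 of 42 genes had a WT peak and 15 held 27 extra peaks, and 13 of the 15 were lower and 0 higher, as 35 of 42 in the list were lower. Otc, the urea cycle carbamoyltransferase, had one of 48.9 at 1 base upstream of a WT peak of 18.9. The insulin receptor Insr had 6, the best 21.9, all downstream of 1 kept WT peak of 457.5 and 20593 to 125263 bases from it, and Hgd (homogentisate dioxygenase) and G6pc (glucose-6-phosphatase) had best peaks of 20.8 and 8.79.

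Genes of regulators came next. Of 36 hepatocyte transcription factors 15 had a WT peak and 11 held 25 extra peaks with a median of 9.41, and 8 of the 11 were lower and 0 higher in RNA, against 20 and 4 over the list. Foxo1, a target of insulin signalling, had 6, the best 28.2 at 953 bases downstream of a WT peak of 90.8. Nfix and Nr5a2 had best extra peaks of 19.7 and 16.1. In the circadian list 7 of 17 genes had a WT peak and 5 held 8 extra peaks, and beside Tef the best were 34.4 in the kinase Csnk1d, 14.2 in Bhlhe40 and 11.1 in Per1. Tef fell by 2.03 (SE 0.20, adjusted p = 1.91e-22) in the authors' deposited table, and of the 5 genes 1 was higher and 1 lower, against 4 and 6 of 17.

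Of 74 chromatin regulators 21 had a WT peak and 18 held 71 extra peaks, with a median score of 11.7. Besides Kmt2d the best were 83.1 in the remodeller Chd9, 42.3 in the corepressor Ncor1 and 27.5 in the demethylase Kdm5c, which lay 128 bases from its gene's start. Of these 18 genes 6 were higher, 1 lower and 11 not called, and in the list 27 of 71 tested were higher and 1 lower. Of 56 genes of receptor and kinase signalling 14 had a WT peak and 8 held 33 extra peaks with a median of 11. Among these 8 the strongest were in Lifr (82.5), the receptor of leukaemia inhibitory factor, Notch2 (25.2), the Wnt coreceptor Lrp6 (22.4) and Insr. These 8 were 1 higher and 2 lower in RNA, against 22 and 9 of 55. Notch2 rose by 1.17 (SE 0.25, adjusted p = 1.43e-05) and Kmt2d by 1.20 (SE 0.18, adjusted p = 6.13e-10) in the authors' deposited table.

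Of 30 p53 targets and apoptosis genes 8 had a WT peak and 5 held 12 extra peaks, with 4 of the 5 higher and 0 lower in RNA and 19 and 2 of 30 over the list. Bcl2l1, a survival protein, had one of 30.9, 982 bases upstream of a WT peak of 30.8. Btg2, an antiproliferative gene, had one of 30.1, Mcl1 one of 11.01 among 4 and Mdm2, the ligase of p53, one of 6.62 at 174 bases from its start. By the authors' deposited table, Bcl2l1 rose by 1.54 (SE 0.21), Btg2 by 1.58 (SE 0.24) and Mdm2 by 1.354 (SE 0.22), with adjusted p of 2.13e-12, 2.35e-10 and 7.48e-09. Among 27 liver cell type markers 11 had a WT peak and 9 held 21 extra peaks, the strongest in the endothelial receptor Kdr (78.8, beside a WT peak of 106.6), then Clec4g (7.91), Clec4f (6.07) and Spp1 (2.86).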

How the data were processed

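Liver RNA of tunicamycin-treated WT and KO mice was sequenced before and after m6A immunoprecipitation. Per the submitters' processing notes, the tools were HISAT2 2.1.0 and DESeq2 1.18.1 and the build was mm10. The peak caller, its settings, the read counter and the annotation were not given in the sources used here. Each deposited peak has an enrichment score, read here as a ratio of immunoprecipitated over input RNA, and a value between 0 and 1 that was read as the authors' p-value. In the authors' deposited table the mean count is a signal (the mean of normalised counts over the 4 input libraries), the fold change and its SE are log2 values, the test value is a score, and p-values are given raw and adjusted by the authors. Extra peaks had p of at most 0.0703. Of the 5586 WT peaks, 55 had a p above 0.01, and the lowest WT score was 0.69. The rule used all WT peaks as listed.

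Blocks were rebuilt from the listed starts and sizes and compared by strand with Python 3.11.15, pandas 2.3.3, numpy 2.4.6 and scipy 1.17.1; bedtools 2.31.1 gave the same number. The overlap step was tested on simulated blocks. Start sequences and gene spans came from RefSeq tables of GRCm38.p6, in which 1577 of the 1646 gene symbols matched. No test was run on the peaks. Calls of RNA are the authors' (DESeq2, Benjamini-Hochberg, adjusted p under 0.05).

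The members and the 12 gene lists (504 genes) were chosen with earlier results of these data known. Genes were named by a rule: the 10 highest and 5 lowest scores, the 5 genes with most extra peaks, the 5 nearest, farthest and widest peaks, the 5 largest RNA rises and falls among called genes of mean count 100 or more (predicted genes left out), and up to 4 genes per list by their highest score; others are list members, or named after their values were seen. Some genes that the rule names are not reported here.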

Additional observations from a re-analysis of the deposited data

How the results depend on the processing

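The count of extra peaks stayed within 1.5 times of 3012 under every alternative but 1. When only KO peaks with at least 50% of their bases in WT blocks counted as shared, 4741 peaks were extra, with a median score of 9.58, a median width of 100 bases and a median distance of 100 bases. The other settings gave 2426 to 3027 extra peaks. The median score was 7.75 without scores under 2 times the lowest listed. The median width was 97 bases from start to end with introns. The median distance was 3705 bases without peaks within 100 bases of a WT block, and 2256 bases between centres. Whether the listed block ends are inclusive was not given in the sources used here. Blocks were made 1 base longer for the case that they are, an alternative chosen after seeing the data. The 145 extra peaks at a distance of 0 then shared a base with a WT peak, and 2867 peaks were extra. The median width was 52 bases and the median distance 1879 bases. Asking for a change of at least 2-fold as well left 91 genes higher and 362 lower in RNA. No paired analysis was possible because each genotype has 1 peak list and the deposited comparison is 1 fit, with no column that carries a replicate number. Leaving out single libraries was not run, since values of single libraries were not used here. The share of peaks with GGAC and distances along the mature mRNA were not run either, for want of a genome and exon annotation in the analysis. With 1 value per peak and genotype, no score has a replicate error, and depth per library is not known here.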

Other observations

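Many extra peaks carried scores that are ratios of whole numbers with a small denominator. The share of such scores in other peak classes is not given here. Of the 3012 extra peaks, 921 (30.6%) had a score equal, within 1e-06, to a ratio with a denominator of at most 60, and 58 were whole numbers. Among the 28 scores above 100, 18 had such a ratio with a denominator of at most 20. The number of extra peaks in a gene went little with its abundance: Spearman's rho between that number and the mean count was 0.10, and between score and width of the extra peaks it was 0.23, both as descriptions across genes or peaks that share libraries.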
